A study of Mus musculus with 4 samples.

Results

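Short interspersed elements (SINEs) are the subject here, as they appear among the small RNAs of mouse sperm. The members are the rows of the repeats class whose name holds _SINE or starts with B1_ or B2_. They number 66 of the 498 rows of that class, and the 5 small RNA classes hold 2150 rows. By name, 24 rows derive from 7SL RNA and 42 from transfer RNA. Sperm came from the cauda epididymis of adult C57BL/6 mice, either from an extra cross to wildtype or from the original cross, and 2 mice of each cross gave a library each. The labels give no allele or transgene for either cross, and they do not say which cross is the one whose LoxP site is silenced, the subject of the study's title. Each level is in RPM, a read number that the authors scaled to a fixed total per library, and there is 1 table for each replicate number, holding a library of each cross.

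SINEs are short retrotransposons that RNA polymerase III transcribes and that depend on proteins of LINE L1 elements to copy themselves into new places. Rodent genomes carry several lineages of them. B1 descends from 7SL RNA, the RNA of the signal recognition particle, which directs nascent secreted proteins to the endoplasmic reticulum. B2, ID, B3 and MIR elements descend from transfer RNA and keep an internal promoter made of an A box and a B box. In male germ cells, DNA methylation and PIWI-bound piRNAs hold retrotransposons silent, and fragments of repeat transcripts are found among the small RNAs of sperm.

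No consensus sequence of the SINEs was used here, so an RNA gene of the tRNA-derived lineage is shown, taken from GENCODE transcripts on mouse assembly GRCm38. BC1 RNA, a rodent RNA known from the dendrites of neurons, starts with an ID element and thus belongs to that lineage. Its gene lies on the plus strand at chr7:144914470-144914637. Capitals mark the letters of the A box core and then of the B box core in BC1.
Bc1: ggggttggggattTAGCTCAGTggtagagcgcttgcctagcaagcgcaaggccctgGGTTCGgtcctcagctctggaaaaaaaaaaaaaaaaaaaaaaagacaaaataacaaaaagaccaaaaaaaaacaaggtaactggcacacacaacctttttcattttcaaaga
Both strands were searched for TNGCNNAGT as the core of the A box and GGTTCG as the core of the B box, where N is any base. In BC1 they start at bases 14 and 57 of the transcript and do not overlap. Of 32851 RefSeq windows around gene starts (GRCm38.p6, 300 bases each), 10.3% hold the A box letters and 4.72% the B box letters.

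The RPM scale rests on about 1557770 and 4205690 reads in extra-cross replicates 1 and 2, and on about 632859 and 1782510 reads in original-cross replicates 1 and 2. These totals come from the commonest miRNA value of each library, taken as 1 read, which was 0.642 and 0.238 RPM in the extra cross and 1.58 and 0.561 RPM in the original cross. Spermatogenic microRNAs were present, led by mir-34c, and the 4 of 5 listed with a row summed to 1813 and 1205 RPM in the extra cross and 1923 and 749 RPM in the original cross, where 2 were higher with the extra cross in each table and 0 lower in each. One of them, mir-449c, was listed at 0 in extra-cross replicate 1. Of 5 microRNAs typical of epididymal epithelium, 4 were higher with the extra cross in each table. The 5 summed to 10408 and 5315 RPM in the extra cross against 4394 and 2055 RPM in the original cross. Of 6 typical of smooth muscle and stroma, 5 were lower in both, with sums of 3382 and 5078 RPM in the extra cross against 8547 and 6264 RPM in the original cross. Of 7 typical of blood with a row, 3 were higher and 2 lower in both tables, with sums of 10703 and 918 RPM in the extra cross against 6101 and 1048 RPM in the original cross. The blood sums thus differed more by replicate number than by cross. Of 206 microRNAs that averaged 10 RPM or more, 88 were higher with the extra cross in both tables and 48 lower in both. Rows of equal or nearly equal values, mir-486a with mir-486b and mir-199a-1 with mir-199a-2, were counted separately. No listed microRNA of epithelium, stroma or blood that had a row was at 0 in any library. The part of these other cells in the SINE values was not tested. In such bulk samples fewer cells of a type and less RNA per cell cannot be told apart.

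Reads assigned to SINE rows were a small part of the sperm small RNA. Their levels added up to 469 and 435 RPM in the extra cross, against 624 and 527 RPM in the original cross. That is 6.05% and 7.92% of the repeats class in the extra cross and 5.45% and 11.3% in the original cross. Most of the class was a single row named for 5S RNA in all libraries but original-cross replicate 2. That row, 5S_CPo_Nonautonomous_Cavia, held 63.1% and 53.9% of the class in the extra cross and 62.2% and 39.6% in the original cross. Of the 66 rows, 5 have a name ending in __ and repeat the values of a row of the same name in all 4 libraries (for B1_Mm, B1_Mus1, B2_Mm1a, B2_Mm1t and B2_Mm2), which leaves 61 distinct elements. The sum and shares above include these copies. With identical rows counted once the sum was 388 and 370 RPM in the extra cross against 494 and 438 RPM in the original cross. Of the 61 distinct elements, 11 had a mean of at least 10 RPM over the 4 libraries, 19 had 1 to 10 RPM and 31 had less than 1 RPM. Both tables list 50 of the rows, 14 are only in that of replicate 2 2 are only in that of replicate 1, and a row missing from a table was set to 0 there. Most low values were not whole reads: among 156 values above 0 and at most 20 reads, 14.1% lay within 0.02 of a whole read. Which entries a read was divided among is not given. The elements therefore cannot be taken as independent of each other.

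The SINE row with the highest level was PB1_SINE1-7SL_Rodentia, named for the proto-B1 consensus from which the B1 family of rodents descends. It had 119 and 125 RPM in the extra cross and 90.9 and 127 RPM in the original cross, and ranked 5 among all repeats. Its levels stood for 185 and 524 reads in the extra cross and 57.5 and 226 reads in the original cross. Original-cross replicate 1 was the lowest library and the other 3 lay close together, so the crosses overlapped. The next was STRIDE1_SINE1-7SL_Ictidomys, named for a genus of ground squirrels and ranked 7 among repeats. It had 62.3 and 73.7 RPM in the extra cross and 61.6 and 82.2 RPM in the original cross. Here, too, the crosses overlapped, and both libraries of replicate 2 were above both of replicate 1. PB1 and STRIDE1 together made up 38.7% and 45.6% of the SINE sum in the extra cross and 24.4% and 39.7% in the original cross. Whether the reads of these 2 rows came from transcripts of the elements named, or from related RNAs such as 7SL RNA, was not tested. Their log2 fold changes, extra over original on the scale of log2(RPM + 1), were 0.18 ± 0.46 and -0.07 ± 0.43 (SE, 2 libraries per cross), with a limma adjusted p of 0.995 for each. The direction of neither was stable. PB1 was at -0.057 without original-cross replicate 1. STRIDE1 was at 0.25 under median-ratio scaling, at 0.090 with the repeats rescaled to one sum, at 0.050 without extra-cross replicate 1 and at 0.13 without original-cross replicate 2.

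**Figure D1:**
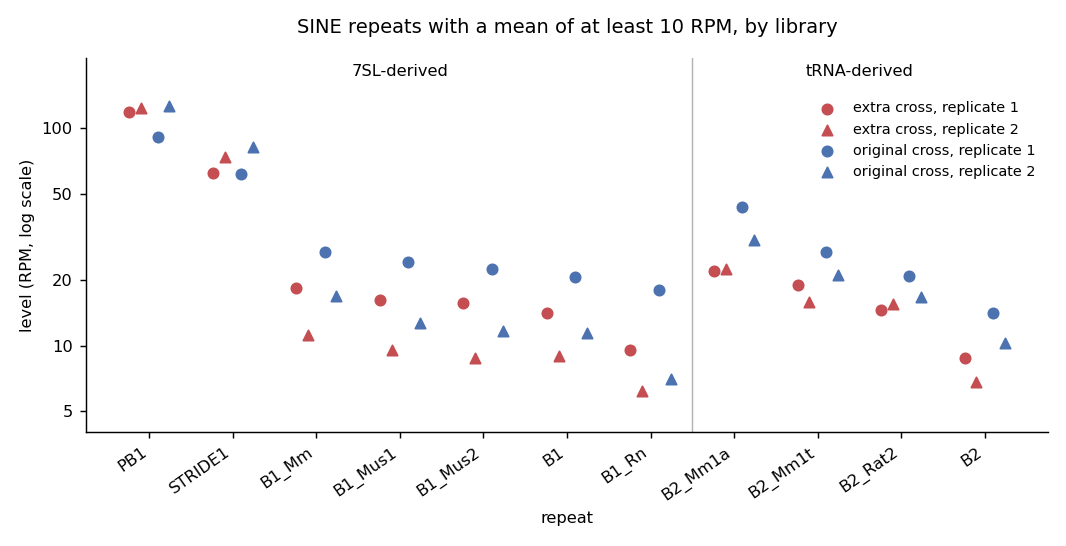
Levels in RPM (log scale) of the 11 distinct SINE repeats with a mean of at least 10 RPM, 1 point per library, with the extra cross left of the original cross for each repeat. PB1 and STRIDE1 lie between 61.6 and 127 RPM in all 4 libraries, and the B1 and B2 elements lie between 6.15 and 43.3 RPM.

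The 5 B1 elements proper that averaged 10 RPM or more were lower in the extra cross in each table. The same held for 46.3% of all 760 small RNA features of that level and for 73.5% of the 49 other repeats. Averaged over the tables, the log2 difference was smaller in each of the 5 than that between replicate numbers averaged over the crosses. B1_Mm_SINE1-7SL_Mus, a young B1 subfamily of the mouse, had 18.4 and 11.2 RPM in the extra cross and 27.0 and 16.9 RPM in the original cross, which stands for 28.7 and 47.2 reads in the extra cross against 17.1 and 30.1 reads in the original cross. Extra-cross replicate 1 was above original-cross replicate 2, so the crosses overlapped although each table had the lower value in the extra cross. B1_Mus1_SINE1-7SL_Mus had 16.3 and 9.52 RPM in the extra cross and 24.2 and 12.7 RPM in the original cross. B1_Mus2_SINE1-7SL_Mus had 15.8 and 8.81 RPM in the extra cross against 22.5 and 11.7 RPM in the original cross. These are close relatives, and B1_SINE1-7SL_Mus, the general mouse B1 entry, had 14.2 and 8.96 RPM in the extra cross against 20.8 and 11.5 RPM in the original cross. The rat consensus B1_Rn_SINE1-7SL_Rattus had 9.52 and 6.15 RPM in the extra cross and 18.0 and 7.04 RPM in the original cross. In all 5, original-cross replicate 1 was the highest library, extra-cross replicate 2 the lowest, and extra-cross replicate 1 was above original-cross replicate 2. Their log2 fold changes lay between -0.54 ± 0.51 for B1_Mm and -0.42 ± 0.54 for B1 (SE), with a limma adjusted p of 0.995 for each. Without original-cross replicate 1, B1_Mus2 and B1_Rn were at 0.015 and 0.11.

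On the RPM scale, the 4 tRNA-derived B2 elements that averaged 10 RPM or more were lower in both extra-cross libraries than in either original-cross library. The same held for 26.8% of all 760 small RNA features of that level. It also held for 71.4% of the 49 other repeats, among them 24 of 26 L1 elements. B2_Mm1a_SINE2-tRNA_Mus, a young mouse B2 subfamily and the most abundant one, had 22.1 and 22.6 RPM in the extra cross and 43.3 and 30.7 RPM in the original cross, which stands for 34.5 and 95.2 reads in the extra cross against 27.4 and 54.8 reads in the original cross. The 2 extra-cross libraries nearly coincided and original-cross replicate 1 stood highest. B2_Mm1t_SINE2-tRNA_Mus had 19.0 and 15.8 RPM in the extra cross and 26.9 and 21.1 RPM in the original cross. B2_Rat2_SINE2-tRNA_Rattus had 14.6 and 15.5 RPM in the extra cross against 21.0 and 16.7 RPM in the original cross, the narrowest gap of the 4. B2_SINE2-tRNA_Mus had 8.78 and 6.80 RPM in the extra cross and 14.2 and 10.3 RPM in the original cross. The log2 fold change was -0.68 ± 0.42 for B2_Mm1a (SE, limma adjusted p = 0.826), -0.58 ± 0.49 for B2 and -0.44 ± 0.43 for B2_Mm1t. It was -0.30 ± 0.43 for B2_Rat2, which was at 0.0091 under median-ratio scaling. The last 3 each had a limma adjusted p of 0.995.

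**Figure D2:**
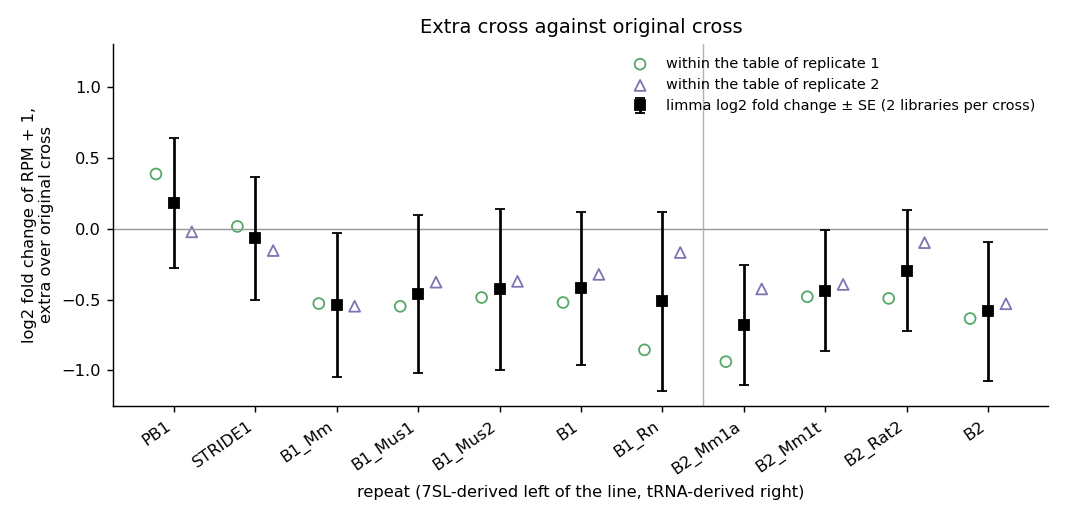
Log2 fold change of RPM + 1, extra over original cross, for the 11 distinct SINE repeats. Black squares are limma estimates with SE from 2 libraries per cross, open circles and triangles the difference within the tables of replicates 1 and 2. The 5 B1 and 4 B2 elements lie below 0 in both tables, and PB1 and STRIDE1 lie on either side of it.

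In a limma fit of 760 small RNA features that averaged 10 RPM or more, cross was the single term and 0 passed at a Benjamini-Hochberg adjusted p of 0.05, a background of 0%. At an unadjusted limma p under 0.05 there were 112 features (14.7%), of which 106 were lower in the extra cross (13.9%). Of the 112, 104 were piRNAs, of which the fit held 121. The 49 other repeats held 2 of the 112 and the 15 SINE rows in the fit held none. Of the 11 distinct elements in the fit, 9 were lower in the extra cross in both tables and 0 higher in both, where 46.3% of the 760 features were lower in both and 19.9% higher in both. Leaving out piRNAs, 36.8% of 639 features were lower in both. The crosses did not overlap in 4 of the 11, all B2 elements with the extra cross lower, against 26.8% of the 760 features and 14.1% of the 639 without piRNAs. None was higher without overlap, against 4.47% of the 760. Among the 49 other repeats in the fit, 73.5% had the lower value in the extra cross in each table, 10.2% the higher one in each, and 71.4% were lower without overlap. The median log2 fold change was -0.46 over the 15 SINE rows, -0.53 within the table of replicate 1 and -0.38 within that of replicate 2. Over the 11 distinct elements it was -0.44. It was -0.47 over the 49 other repeats, -0.50 over 26 L1 elements and -0.12 over all 760 features. Median-ratio scaling, which sets the libraries to a common median feature, moved the median of all features to 0.19 and that of the SINEs to -0.16. Relative to all features, the SINE median was then at -0.35 and that of the other repeats at -0.35.

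The B1 elements, the B2 elements and the PB1 and STRIDE1 pair had different ranges of the difference between replicate numbers. For the 5 B1 elements the log2 difference of replicate 1 over replicate 2 ran from 0.56 for B1_Rn to 0.77 for B1_Mus2 in the extra cross, and from 0.65 for B1_Mm to 1.24 for B1_Rn in the original cross. For the 4 B2 elements it ran from -0.079 for B2_Rat2 to 0.33 for B2 in the extra cross, and from 0.31 for B2_Rat2 to 0.48 for B2_Mm1a in the original cross. PB1 and STRIDE1 went the other way, at -0.07 and -0.24 in the extra cross and -0.48 and -0.41 in the original cross. The median over the 26 L1 elements was -0.02 in the extra cross and 0.25 in the original cross. A replicate number names a mouse of each cross, and the labels name no batch behind it. These differences between single libraries have no test.

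**Figure D3:**
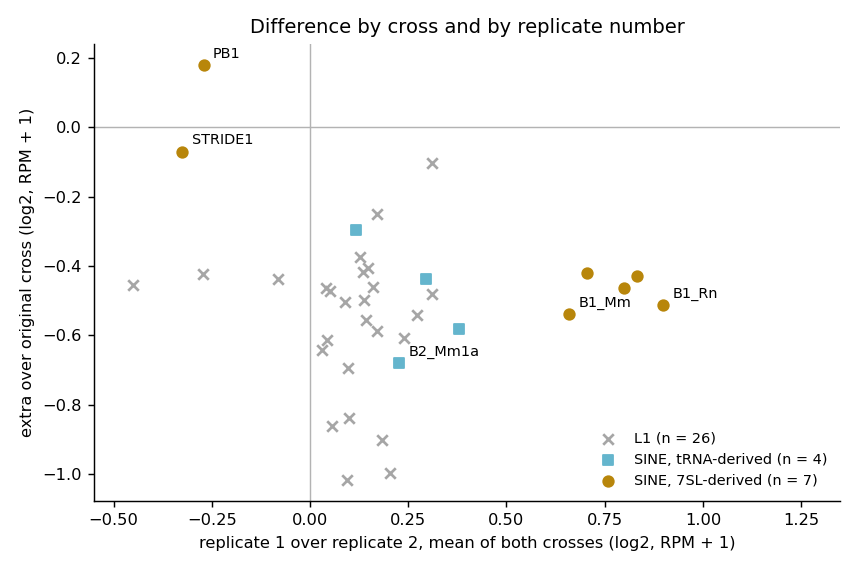
Log2 difference by cross (vertical axis, extra over original) against the log2 difference of replicate 1 over replicate 2 averaged over both crosses (horizontal axis), both on RPM + 1, for the distinct SINE repeats and L1 elements with a mean of at least 10 RPM. On the horizontal axis the 5 B1 elements lie between 0.66 and 0.90, the 4 B2 elements between 0.12 and 0.38, and PB1 and STRIDE1 at -0.27 and -0.32.

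The summed levels were taken for each lineage, with copied rows included. The tRNA-derived elements summed to 156 and 149 RPM in the extra cross and 263 and 201 RPM in the original cross, which is 0.593-fold and 0.741-fold within the tables of replicates 1 and 2. The 7SL-derived elements summed to 313 and 285 RPM in the extra cross and 361 and 325 RPM in the original cross, 0.866-fold and 0.877-fold. Without PB1 and STRIDE1, which were set apart after their values were seen, the 7SL-derived sum was 132 and 87.2 RPM in the extra cross against 209 and 116 RPM in the original cross, 0.631-fold and 0.748-fold. The 7SL-derived share of the SINE sum was 66.2% ± 0.77 in the extra cross and 59.8% ± 2.76 in the original cross (SD, n = 2 each). The ratio of the 7SL-derived sum without PB1 and STRIDE1 to the tRNA-derived sum was 0.845 and 0.584 in the extra cross and 0.794 and 0.579 in the original cross. This ratio thus differed by replicate number and hardly by cross. The SINE sum, both lineage sums and the 7SL-derived share each gave p = 0.333 in a two-sided exact permutation test over the 4 libraries, and p = 0.333 after adjustment over these 4 values. With 2 libraries against 2 this is the smallest p the test can give. In all 4 values the crosses did not overlap on the RPM scale. The log2 ratio of the SINE sums, extra over original, was -0.35 on that scale and -0.023 under median-ratio scaling. The size factors of that scaling were 0.928 and 0.862 in the extra cross and 1.20 and 1.04 in the original cross. Divided by them, the 7SL-derived sum was higher in both extra-cross libraries than in either original-cross library, so its direction turned. The tRNA-derived sum stayed lower in both extra-cross libraries. The SINE sum did so only narrowly.

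**Figure D4:**
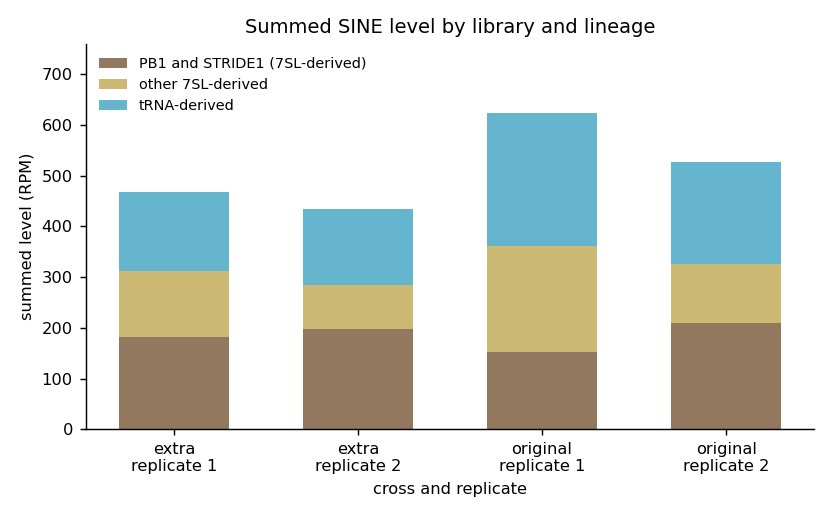
Summed SINE level in RPM in each library, copied rows included, split into PB1 with STRIDE1, the other 7SL-derived elements and the tRNA-derived elements, extra cross left. The total is 469 and 435 RPM in the extra cross and 624 and 527 RPM in the original cross, and the PB1 and STRIDE1 part is lowest in original-cross replicate 1.

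Of the 19 distinct elements between 1 and 10 RPM, 18 were lower in the extra cross in both tables, against 49.9% of the 579 small RNA features of this range and 52.5% of the 101 other repeats in it. In 12 of the 19 the extra cross was lower without overlap, against 38.7% of the 579 features and 32.7% of the 101 other repeats. One element was higher in both, against 14.7% of the 579 features. These elements were outside the fit, and entries that may share reads count separately. Their median log2 difference was -0.73 in the table of replicate 1 and -0.29 in that of replicate 2. B1_Mur4_SINE1-7SL_Muridae, of an older B1 subfamily shared by mouse and rat, had 6.68 and 4.75 RPM in the extra cross and 14.3 and 6.04 RPM in the original cross. The mouse B2 subfamily B2_Mm2_SINE2-tRNA_Mus and its copy had 4.62 and 5.27 RPM in the extra cross against 8.59 and 7.14 RPM in the original cross. The rat B2 entries B2_Rat1, B2_Rat3, B2_Rat4, B2_Rn and B2_Rn2 lay between 3.39 and 4.98 RPM in the extra cross and between 5.34 and 9.91 RPM in the original cross. None of these 5 rat entries overlapped between crosses, while the rat entry B2_RnY did, at 1.47 and 2.60 RPM in the extra cross against 1.73 and 3.26 RPM in the original cross. The gerbil entry SINEB2_MU overlapped as well, at 2.96 and 2.13 RPM in the extra cross against 4.95 and 2.65 RPM in the original cross. Both were named after their values were seen. SINEB1_MU_SINE1-7SL_Meriones, named for the gerbils, had 2.19 and 2.99 RPM in the extra cross and 9.02 and 3.62 RPM in the original cross, where original-cross replicate 1 stands for 5.71 reads. B1_Mur3_SINE1-7SL_Muridae had 4.51 and 2.97 RPM in the extra cross against 5.85 and 3.65 RPM in the original cross, with overlap. The only element of this range with a higher value for the extra cross in each table was B1F2_SINE1-7SL_Muridae, at 0.214 and 2.13 RPM in the extra cross against 0 and 2.06 RPM in the original cross. It lay above 2 RPM in both libraries of replicate 2 and near 0 in both of replicate 1. It is not among the 10 most abundant elements of this range and is named because it was the exception, after its values were seen.

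The remaining 31 elements, all with a mean below 1 RPM, hold the BC1 entries and old mammalian SINEs. BC1_Mm_SINE2-tRNA_Mus, the entry for the RNA shown above, had 0.456 and 0.149 RPM in the extra cross and 0.830 and 0.494 RPM in the original cross, in each case under 1 read. The old mammalian elements MIR3 and MIRc were at 0.238 RPM in extra-cross replicate 2 and at 0 in the other 3 libraries. These elements were outside the fit of 760 features. In a fit with no filter on low values, none of the 66 SINE rows had an unadjusted limma p under 0.05. At so few reads a difference between crosses could be missed.

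The host genus in a consensus name followed the level in part. Of 10 distinct elements named for Mus, 7 had a mean of at least 10 RPM, against 2 of 12 named for Rattus, 0 of 8 named for Muridae and 1 of 15 named for Rodentia. Of 3 named for the ground squirrel genus Ictidomys, 1 had such a mean, and the other taxa held none. The Mus elements summed to 120 and 89.5 RPM in the extra cross and 188 and 123 RPM in the original cross. The Rattus elements summed to 50.5 and 49.5 RPM in the extra cross and 85.2 and 62.6 RPM in the original cross. On the RPM scale the crosses overlapped in neither set. Under median-ratio scaling the Mus sums overlapped and the Rattus sums did not. The Muridae sums overlapped on the RPM scale, at 22.8 and 17.9 RPM in the extra cross against 36.4 and 22.2 RPM in the original cross. The Rodentia sum, 124 and 130 RPM in the extra cross against 101 and 136 RPM in the original cross, was mostly PB1. The Ictidomys sum went against the pattern of names, at 62.3 and 74.2 RPM in the extra cross and 61.7 and 82.2 RPM in the original cross, and was mostly STRIDE1.

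The RNAs from which the lineages descend were set beside them. A 7SL pseudogene row of the repeats class, P7SL_Cpo_Pseudogene_Cavia, had 141 and 133 RPM in the extra cross and 245 and 150 RPM in the original cross. The 7SL RNA genes Rn7s1 and Rn7s2 had equal values in every library, and each had 74.9 RPM in the extra cross and 81.9 RPM in the original cross within the table of replicate 2, and 27.3 RPM in extra-cross replicate 1. RefSeq rows of original-cross replicate 1 are on another scale, with a class sum of 7926 RPM against 131739 to 155300 RPM in the other libraries, and were not compared. Other RNA polymerase III transcripts within the table of replicate 2 went in both directions. Rn7sk, which holds back transcription elongation, had 515 RPM in the extra cross and 576 RPM in the original cross. The Y RNA Rny1 had 858 RPM in the extra cross against 691 RPM in the original cross, and the Y RNA Rny3 had 961 RPM in the extra cross against 1171 RPM in the original cross. The vault RNA Vaultrc5 had 58.5 RPM in the extra cross against 44.3 RPM in the original cross. Rmrp, of the mitochondrial RNA processing ribonuclease, had 131 RPM in the extra cross against 95.4 RPM in the original cross. Rpph1, the RNA of ribonuclease P, had 16.4 RPM in the extra cross against 25.0 RPM in the original cross. Transcripts of the 8 signal recognition particle proteins listed summed to 9.54 RPM in the extra cross and 15.9 RPM in the original cross of that table. The 29 tRNA-Ala genes in the fit, related to the ID lineage, had a median log2 fold change of -0.08, which was 0.24 under median-ratio scaling, and 0 passed the threshold. Of these 29 genes, 10 were lower in the extra cross in both tables and 10 higher in both.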

How the data were processed

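RPM is the unit of every deposited value, per the file headers, and which reads make up its total is not given in the sources used here. CASAVA 1.8.2, Bowtie 1.1.2 and mm10 are named in the submitters' processing notes, with no role. Trimming, the repeat annotation and the rule for reads with several matches are not given there. Each mouse was processed separately, per the labels' protocols. The 5 small RNA classes were fitted together with limma 3.58.1 (R 4.3.3) on log2(RPM + 1), with cross as the single term, a trend in the variance and a minimum mean of 10 RPM. P-values were adjusted by Benjamini-Hochberg over 760 features. RefSeq rows were left out of the fit. The test was tested on simulated data. Sums were compared by exact permutation. Count models were not run, since the values are not read counts. The members and lists were chosen with earlier results of these data known. All SINEs of at least 10 RPM are named, then the 10 most abundant of the rest. Python 3.11.15 and matplotlib 3.10.9 prepared tables and plots. A sequence of the 7SL lineage is not reported here.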

Additional observations from a re-analysis of the deposited data

How the results depend on the processing

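No SINE repeat passed limma's adjusted threshold under any alternative run, and none had an unadjusted p under 0.05. Over all features 0 passed, except that 171 passed with a replicate block, although nothing in the labels ties a replicate number to a shared litter or day. Replicate differences of the crosses correlated at 0.872 over 760 features. The SINE median of -0.46 was -0.16 under median-ratio scaling, -0.31 with the repeats rescaled to one sum and -0.30 with no filter, and -0.86 to -0.20 with 1 library left out. The 7SL-derived median of -0.46 was -0.16, -0.31 and -0.34 under the same 3, and -0.86 to -0.021 with 1 library left out. The tRNA-derived median of -0.51 was -0.21, -0.36 and -0.29, was -0.40 with a pseudocount of 5 RPM, and ran from -0.70 to -0.32 with 1 library left out. The log2 ratio of the SINE sums, -0.35, was -0.023 under median-ratio scaling and -0.59 without PB1 and STRIDE1, and -0.47 to -0.22 with 1 library left out. The 7SL-derived share of 63.0% was 68.4% with identical rows counted once, 69.9% over members of at least 10 RPM and 40.9% without PB1 and STRIDE1, and 61.8% to 64.7% with 1 library left out. Counting copies once and leaving out PB1 and STRIDE1 were chosen after seeing the data. The direction turned for B2_Rat2 (0.0091 under median-ratio scaling) and STRIDE1 (0.25 there and 0.090 with repeats rescaled). With 1 library left out, STRIDE1 ran from -0.27 to 0.13 (0.050 without extra-cross replicate 1), PB1 from -0.057 to 0.42, B1_Mus2 from -0.87 to 0.015 and B1_Rn from -1.13 to 0.11. The cause was not tested. Count models were not run, since RPM are not counts. Original-cross replicate 1, the shallowest library, limits the precision.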

Other observations

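A repeat row outside the SINE rule, 4.5SRNA_Transposable_Element, was picked after its values were seen. Its name is that of 4.5S RNA, a class of small RNA polymerase III transcripts of rodents related to SINEs. It had 27.6 and 44.2 RPM in the extra cross and 107 and 85.3 RPM in the original cross, with no overlap between crosses. Its log2 fold change was -1.43 ± 0.46 (SE, limma adjusted p = 0.248), and it was -1.11 under median-ratio scaling. Within the tables of replicates 1 and 2 the log2 difference was -1.92 and -0.93.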
